A study of Homo sapiens with 4 samples.

Results

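Bone morphogenetic proteins (BMPs) are secreted ligands of the TGF-beta family, and 10 genes that carry, restrain or read out their signal were followed in RNA-seq of HUES8 cells, a human embryonic stem cell line. The genes were taken by symbol from the deposited count table, and all 10 were found among its 59050 rows: the ligands BMP2, BMP4 and BMP7, the receptor BMPR1A, the feedback inhibitors SMAD6 and BAMBI, and the targets ID1, ID2, ID3 and ID4. The 4 libraries came from cells grown undifferentiated in mTeSR1 medium on a Matrigel coating, 2 with the genotype label WT and 2 with the genotype label CPT2 KO, and the treatment label reads WT in all 4. CPT2, carnitine palmitoyltransferase 2, hands fatty acyl groups over from carnitine to coenzyme A in the mitochondrion. The title places the study in fatty acid metabolism and definitive endoderm formation, and the only contrast in the labels is the CPT2 genotype. The labels do not say how many knockout clones were used or whether replicates were separate cultures, and the p-values below then reflect only how far these libraries spread, which may be technical.

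A BMP dimer brings type I receptors such as BMPR1A together with type II receptors, and the type I kinase phosphorylates SMAD1, SMAD5 and SMAD9, which enter the nucleus with SMAD4. There they switch on the ID genes, whose products are helix-loop-helix proteins without a DNA-binding region that bind E proteins and keep them off DNA. The same signal switches on its own brakes, among them the inhibitory SMADs and BAMBI, a pseudoreceptor that lacks a kinase. In human pluripotent cells BMP signal is known for driving exit towards mesoderm, amnion and trophoblast, and ID1 and ID3 are widely used as its readout.

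The promoter windows of ID1 and ID2, whose levels lay on opposite sides between the groups, and of ID3, BAMBI and SMAD6 are shown first, because these genes are textbook SMAD targets. Each window holds the 250 bases before and 50 after a RefSeq gene start (build GRCh38.p14), and 8 of the 10 genes had a window. Capitals mark GTCT (AGAC on the other strand), the core letters recognised by SMAD proteins, and the palindrome GGCGCC, a GC-rich form bound by BMP-activated SMADs. The windows are chr20:31605039-31605338 (ID1, plus strand), chr2:8681806-8682105 (ID2, plus strand), chr1:23559452-23559751 (ID3, minus strand), chr10:28677271-28677570 (BAMBI, plus strand) and chr15:66701986-66702285 (SMAD6, plus strand).
ID1: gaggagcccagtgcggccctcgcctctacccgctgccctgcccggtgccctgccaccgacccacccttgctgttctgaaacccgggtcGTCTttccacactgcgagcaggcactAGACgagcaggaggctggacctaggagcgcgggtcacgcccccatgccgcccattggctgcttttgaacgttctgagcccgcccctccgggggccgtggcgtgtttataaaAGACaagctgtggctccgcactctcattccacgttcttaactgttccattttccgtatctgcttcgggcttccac
ID2: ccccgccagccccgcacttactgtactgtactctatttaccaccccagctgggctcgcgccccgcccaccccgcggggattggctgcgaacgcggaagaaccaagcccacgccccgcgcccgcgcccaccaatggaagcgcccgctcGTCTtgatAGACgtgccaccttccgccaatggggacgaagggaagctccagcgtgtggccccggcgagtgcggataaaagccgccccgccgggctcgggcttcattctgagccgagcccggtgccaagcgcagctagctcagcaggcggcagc
ID3: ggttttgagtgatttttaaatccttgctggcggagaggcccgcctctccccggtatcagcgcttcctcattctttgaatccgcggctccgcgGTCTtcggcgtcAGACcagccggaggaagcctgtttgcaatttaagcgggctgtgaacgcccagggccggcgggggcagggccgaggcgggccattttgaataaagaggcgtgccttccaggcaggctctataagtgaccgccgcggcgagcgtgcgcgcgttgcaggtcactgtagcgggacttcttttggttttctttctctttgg
BAMBI: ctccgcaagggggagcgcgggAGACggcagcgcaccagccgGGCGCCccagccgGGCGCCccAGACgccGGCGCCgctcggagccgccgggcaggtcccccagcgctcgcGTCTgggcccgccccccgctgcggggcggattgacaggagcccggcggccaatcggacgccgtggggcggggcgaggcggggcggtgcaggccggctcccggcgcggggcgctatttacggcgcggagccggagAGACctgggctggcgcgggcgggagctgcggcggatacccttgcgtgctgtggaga
SMAD6: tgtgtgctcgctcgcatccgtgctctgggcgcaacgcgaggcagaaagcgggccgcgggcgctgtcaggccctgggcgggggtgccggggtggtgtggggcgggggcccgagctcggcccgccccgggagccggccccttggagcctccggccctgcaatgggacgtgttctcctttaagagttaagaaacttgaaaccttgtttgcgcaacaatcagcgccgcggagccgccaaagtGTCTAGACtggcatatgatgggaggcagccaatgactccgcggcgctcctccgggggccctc

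GTCT was found on either strand 3 times in the ID1 window, 2 times each in those of ID2 and ID3, 4 times in that of BAMBI and 2 times in that of SMAD6, and 84.0% of 35116 windows of this length held it at least once. GGCGCC was found 3 times in the BAMBI window, 2 times in a BMP4 window (not shown) and in none of the ID windows, and 19.2% of all windows held it. The BAMBI window was 80.0% G and C, a higher share than in 97.4% of all windows. The 19.2% was not matched for this share, so it is no measure of how unusual the BAMBI matches are. In the SMAD6 window the 2 GTCT matches together spell the palindrome GTCTAGAC, which 0.202% of all windows held. These letters describe a short stretch around the start and say nothing of whether a SMAD sits there, and ID1 and ID2, which lay on opposite sides between the groups, had 3 and 2 matches to GTCT and 0 to GGCGCC.

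Library totals ranged from 16887789 to 20460031 counts, so that 1 count was worth 0.0485 to 0.0603 CPM, that is, counts scaled so that libraries of different size can be compared (TMM factors of edgeR). The CPT2 transcript was higher under the CPT2 KO label, with 233 and 170 counts there and 52 and 72 in the WT-labelled libraries. CPT2 exons overlap AL606760.2 and C1orf123 on the opposite strand, and the strand setting is not given, so some of these reads are uncertain. Counts per gene do not show whether the protein is made, so every difference here is stated between libraries as labelled. The first WT-labelled replicate differed most from the rest, as its counts gave a chi-square of 39.6 to 53.3 per degree of freedom against each of them, where those 3 gave 10.5 to 12.6 among themselves, and with 4.15% of its counts from mitochondrial genes against 7.21% to 7.84%. All 10 markers of pluripotent stem cells, POU5F1, NANOG and SOX2 among them, were tested and 0 were called in edgeR or DESeq2. At an unadjusted p under 0.05 in edgeR 2 of these markers passed, where 9.04% of all tested genes did. The summed level of the 10 markers was 8293 and 8641 CPM in the WT-labelled libraries and 9002 and 9829 CPM in those labelled CPT2 KO.

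None of the 10 genes passed the test between the groups in edgeR (adjusted p under 0.05 over 17564 tested genes), where 0.416% of tested genes did (0.359% higher and 0.0569% lower). All 10 were tested. At an unadjusted p under 0.05 there were 2 higher, ID1 and BAMBI, and 1 lower, ID2, in the CPT2 KO-labelled libraries, where 9.04% of tested genes passed in either direction. DESeq2 called 1 of the 10, ID1, where it called 1.11% of tested genes, and limma-voom called 0. The 2 libraries of each label did not overlap for 8 of the 10 genes (5 above and 3 below in those labelled CPT2 KO), and 40.9% of all tested genes had no overlap (21.1% above and 19.8% below). The median log2 fold change over the 10 genes was 0.23, against 0.0017 over all tested genes. The 10 genes were chosen with earlier results of these data known, so the values over all tested genes do not measure how unusual they are.

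**Figure D1:**
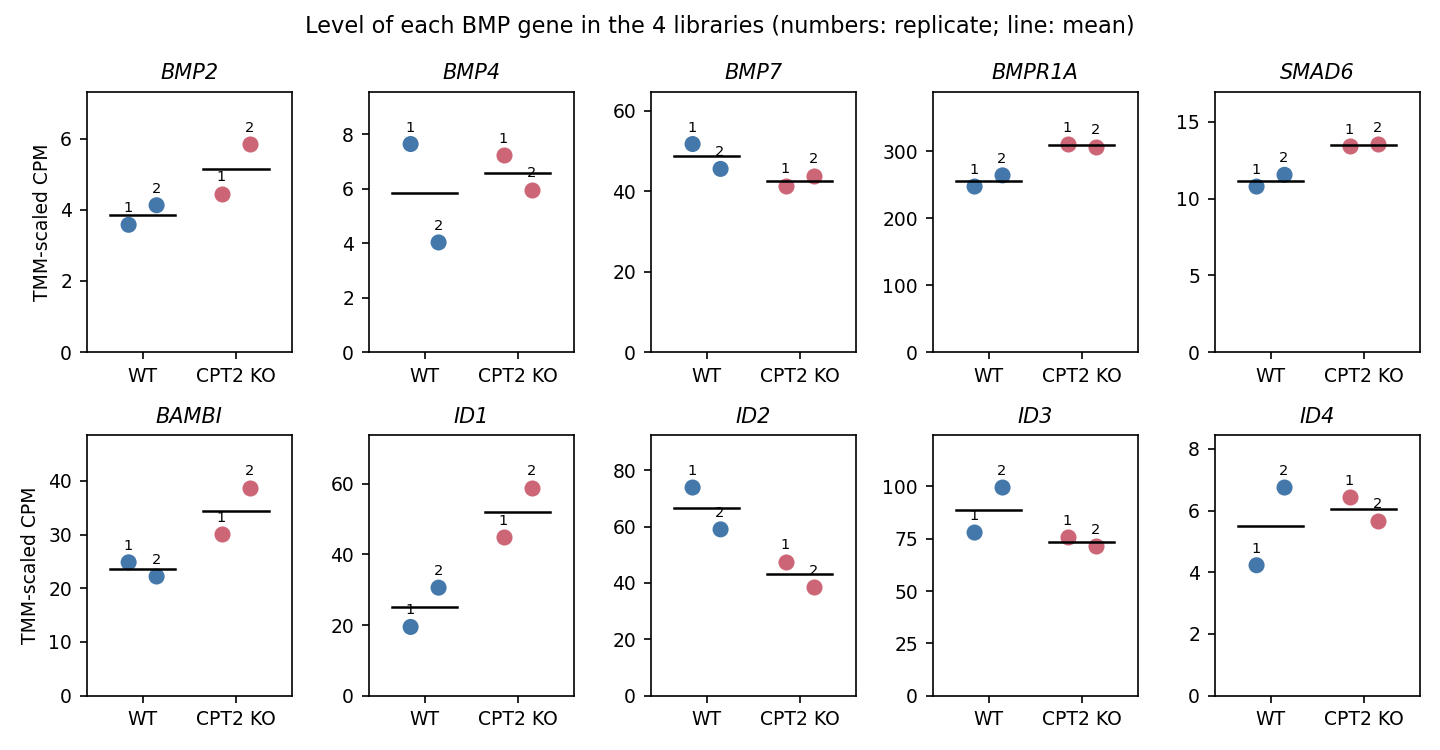
Level of each of the 10 genes in CPM after TMM scaling (vertical axis from 0), by group label; points are libraries, numbered by replicate, and lines are means of 2. ID1 lies at 19.5 and 30.6 CPM in the WT-labelled libraries and at 44.8 and 58.9 CPM in those labelled CPT2 KO, whereas ID2 lies at 73.9 and 59.0 against 47.5 and 38.6 CPM.

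ID1 had the largest log2 fold change in size among the 10 genes. There were 359 and 630 counts, or 19.5 and 30.6 CPM, in the WT-labelled libraries and 905 and 978 counts, or 44.8 and 58.9 CPM, in those labelled CPT2 KO. Both CPT2 KO-labelled libraries lay above both labelled WT, and replicate 2 was the higher one in each pair. The means were 25.02 ± 7.86 and 51.86 ± 9.996 CPM (SD, n = 2 each), a ratio of 2.07 (log2 fold change 1.05 with an SE of 0.23, 95% interval 0.54 to 1.55, edgeR adjusted p = 0.115). Replicates differed by 0.65 on the log2 scale under the WT label and by 0.40 under the CPT2 KO label. Both were less than the log2 fold change of 1.05. The nearest libraries across the labels, at 30.6 and 44.8 CPM, still lay closer on the log2 scale, though not in CPM, than the WT-labelled replicates. DESeq2 gave an adjusted p = 0.00418 for ID1. Over 13 alternatives the edgeR, DESeq2 and limma-voom adjusted p for ID1 ranged from 4.07e-06 to 0.628. In edgeR the log2 fold change was 0.76 without WT-labelled replicate 1 (adjusted p = 0.0452) and 1.41 without WT-labelled replicate 2 (adjusted p = 4.07e-06). It was 1.23 without CPT2 KO-labelled replicate 1 (edgeR adjusted p = 0.185) and 0.84 without replicate 2 (0.628). The ID1 gene runs from 31605283 to 31606515 on the plus strand of chromosome 20 (GRCh38), and its exons overlap no other gene in GENCODE 29.

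ID2 lay on the other side. It had 1363 and 1216 counts, or 73.9 and 59.0 CPM, in the WT-labelled libraries, and 960 and 640 counts, or 47.5 and 38.6 CPM, in those labelled CPT2 KO. Both CPT2 KO-labelled libraries lay below both labelled WT, and here replicate 1 was the higher one in each pair. The means were 66.4 ± 10.5 and 43.0 ± 6.33 CPM (SD, n = 2 each; log2 fold change -0.62 with an SE of 0.17, 95% interval -1.01 to -0.24, edgeR adjusted p = 0.247), and DESeq2 gave an adjusted p = 0.126. ID2 was called in edgeR without WT-labelled replicate 2 (log2 fold change -0.78, adjusted p = 0.00296), where the CPT2 KO-labelled libraries were set against replicate 1 alone, and where 3.84% of tested genes were called lower. Without WT-labelled replicate 1 its log2 fold change was -0.45 (edgeR adjusted p = 0.486). The ID2 gene runs from 8678845 to 8684453 on the plus strand of chromosome 2 (GRCh38), and its exons overlap ID2-AS1 on the opposite strand. Whether counting used strand is not given in the sources used here, so reads of the pair may be exchanged; ID2-AS1 had 139 and 101 counts in the WT-labelled libraries and 107 and 64 in those labelled CPT2 KO.

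ID3, the most abundant ID gene per length in the WT-labelled libraries, was at 77.9 and 99.5 CPM there and at 75.7 and 71.3 CPM in those labelled CPT2 KO. The groups did not overlap, but the WT-labelled replicates differed more from each other than WT-labelled replicate 1 did from either CPT2 KO-labelled library (log2 fold change -0.27, 95% interval -0.62 to 0.075, edgeR adjusted p = 0.630). ID4 was low throughout, at 4.23 and 6.75 CPM against 6.43 and 5.66 CPM, and the groups overlapped (log2 fold change 0.14, 95% interval -0.54 to 0.81, edgeR adjusted p = 0.920). Its log2 fold change was -0.15 without WT-labelled replicate 1.

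Per kilobase of the deposited gene length, the 4 ID genes summed to 102 and 120 CPM per kilobase in the WT-labelled libraries and to 110 and 114 in those labelled CPT2 KO. The sums of the groups overlapped. ID1 made up 15.4% and 20.7% of that sum in the WT-labelled libraries and 33.0% and 41.8% in those labelled CPT2 KO. ID2 made up 32.6% and 22.3% against 19.5% and 15.2%, and ID3 50.9% and 55.5% against 46.0% and 41.7%. The ratio of ID1 to ID2 per length, which no scaling of the libraries can move, was 0.473 and 0.930 under the WT label and 1.69 and 2.74 under the CPT2 KO label. Thus, per length, ID2 stood above ID1 in both WT-labelled libraries and below it in both labelled CPT2 KO. This order depends on the deposited lengths. By CPM alone ID2 was still above ID1 in CPT2 KO-labelled replicate 1 (47.5 against 44.8 CPM) and below it only in replicate 2 (38.6 against 58.9 CPM). Within each label the ratio also differed between replicates, by 1.97 times under the WT label and 1.62 times under the CPT2 KO label, and with 2 libraries a group an exact permutation test cannot give a two-sided p below 0.333, so none was run. In CPT2 KO-labelled replicate 2, ID1 and ID3 stood level, at 47.8 and 47.6 CPM per kilobase.

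**Figure D2:**
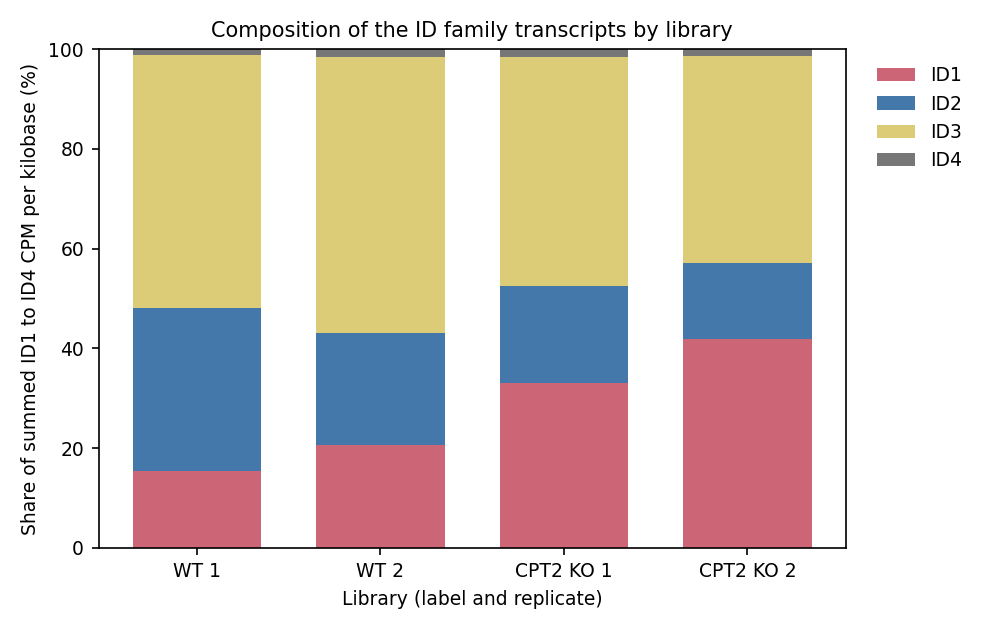
Share of each ID gene in the summed CPM per kilobase of ID1, ID2, ID3 and ID4 (percent, vertical axis), one bar for each library. The ID1 share is 15.4% and 20.7% in the WT-labelled libraries and 33.0% and 41.8% in those labelled CPT2 KO, and that of ID4 lies between 1.07% and 1.51% in all 4.

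Of the feedback inhibitors, BAMBI was at 24.8 and 22.2 CPM in the WT-labelled libraries and at 30.1 and 38.7 CPM in those labelled CPT2 KO. The groups did not overlap, and the difference was larger than that between replicates (log2 fold change 0.55 with an SE of 0.19, 95% interval 0.14 to 0.96, edgeR adjusted p = 0.395). However, the nearest libraries across the labels, at 24.8 and 30.1 CPM, lay closer than the CPT2 KO-labelled replicates. Without CPT2 KO-labelled replicate 2 the BAMBI log2 fold change was 0.36, and the CPT2 KO-labelled replicates differed by 0.36 on the same scale. SMAD6, which blocks SMAD1 and SMAD5 at the receptor, was at 10.8 and 11.6 CPM against 13.4 and 13.6 CPM. Replicates of SMAD6 were close, at 11.2 ± 0.542 and 13.5 ± 0.102 CPM (SD, n = 2 each), and the ratio was 1.21 (95% interval of the log2 fold change -0.19 to 0.73, edgeR adjusted p = 0.710).

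BMPR1A, the type I receptor, was the most abundant of the 10 genes by CPM, at 247 and 264 CPM in the WT-labelled libraries and 311 and 306 CPM in those labelled CPT2 KO. The groups did not overlap and the replicates were within 0.094 on the log2 scale (log2 fold change 0.27 with an SE of 0.13, 95% interval -0.011 to 0.55, edgeR adjusted p = 0.569). Its gene model is long, at 11412 bases, and per length BMPR1A stood at a mean of 24.7 CPM per kilobase over the 4 libraries, close to ID2 (24.7) and below ID1 (31.2) and ID3 (54.2). BAMBI followed at 13.5 and BMP7 at 8.41 CPM per kilobase, and BMP4 (2.01), ID4 (1.49), SMAD6 (1.44) and BMP2 (1.27) were the lowest.

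Among BMP2, BMP4 and BMP7, BMP7 had the highest level per length. It was at 51.8 and 45.6 CPM in the WT-labelled libraries and at 41.3 and 43.9 CPM in those labelled CPT2 KO (log2 fold change -0.19, 95% interval -0.53 to 0.15, edgeR adjusted p = 0.726), and the lower WT-labelled library lay close to the higher one labelled CPT2 KO. BMP4, the ligand most used to drive mesoderm and amnion from stem cells, was at 7.64 and 4.03 CPM against 7.23 and 5.97 CPM. The BMP4 groups overlapped, and the widest gap among its libraries was between the WT-labelled replicates (log2 fold change 0.19, 95% interval -0.54 to 0.93, edgeR adjusted p = 0.886). Its log2 fold change was -0.20 without WT-labelled replicate 2 and 0.72 without WT-labelled replicate 1. BMP2 was at 3.58 and 4.13 CPM against 4.45 and 5.84 CPM, from 66 to 97 counts a library (log2 fold change 0.41, 95% interval -0.27 to 1.09, edgeR adjusted p = 0.707).

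**Figure D3:**
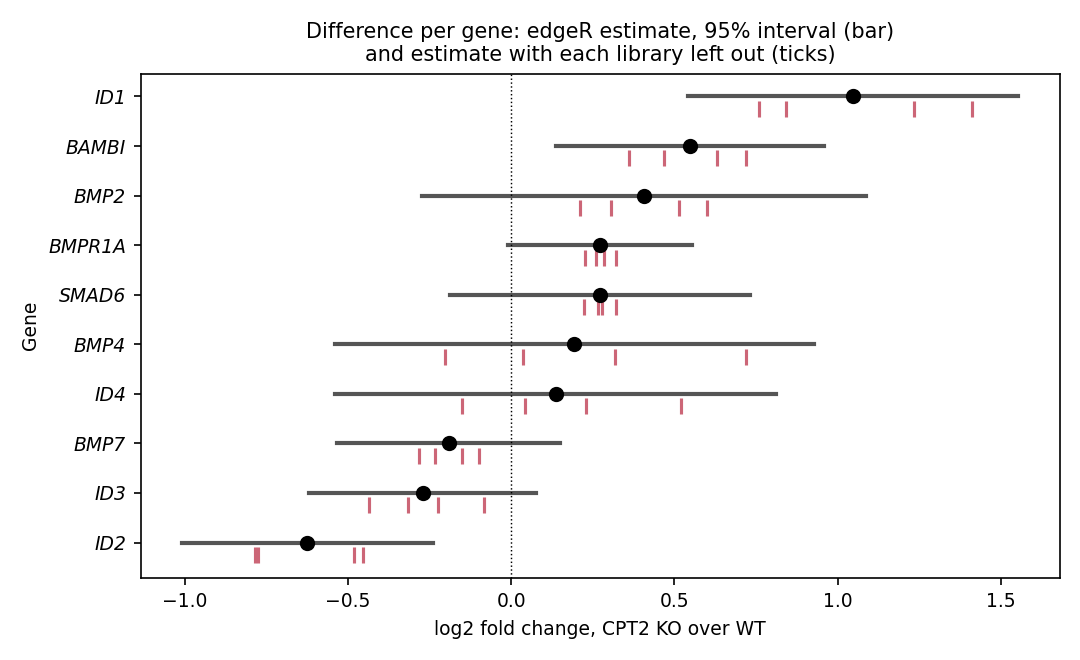
Log2 fold change, CPT2 KO-labelled libraries over those labelled WT (horizontal axis), for the 10 genes (rows); dots are edgeR estimates, bars their 95% intervals, and ticks the estimates with each of the 4 libraries left out. The interval lies above 0 for ID1 and BAMBI, below 0 for ID2 and across 0 for the other 7 genes, and none of the 10 passed after adjustment over all genes.

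In the wider BMP pathway, 52 of 65 listed genes were tested, and 0 were called in edgeR. At an unadjusted p under 0.05, 8 were higher and 1 lower in the CPT2 KO-labelled libraries, where 4.88% and 4.16% of all tested genes were. DESeq2 called 4 higher (GDF3, HEY1, ID1 and NBL1) and 0 lower, where it called 0.848% and 0.262% of tested genes, and limma-voom called 0. The log2 fold change was positive for 26 and negative for 26, with a median of 0.0019. Without the 10 genes the median was -0.012, over 42 tested genes. Without WT-labelled replicate 2, edgeR called 10 of the 52, 6 higher (FST, GDF3, HEY1, ID1, NBL1 and SMAD7) and 4 lower (BMP3, CTDSP1, ID2 and NOG), where it called 3.02% and 3.84% of all tested genes. Without WT-labelled replicate 1 it called 1, ID1, where 0.643% of tested genes were called higher and 0.205% lower.

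Of 15 listed ligands 9 were tested, and GDF3, a TGF-beta family ligand of pluripotent cells, had the largest positive difference. GDF3 was at 26.0 and 46.7 CPM in the WT-labelled libraries and 62.2 and 84.4 CPM in those labelled CPT2 KO (log2 fold change 1.01 with an SE of 0.29, edgeR adjusted p = 0.364, DESeq2 adjusted p = 0.0140). Its WT-labelled replicates differed by 0.85 on the log2 scale, and the log2 fold change was 0.65 without WT-labelled replicate 1 (edgeR adjusted p = 0.106) and 1.49 without WT-labelled replicate 2 (edgeR adjusted p = 5.29e-07). BMP10, BMP15 and GDF2 had 0 counts in all 4 libraries. BMP3 had 68 and 14 counts against 30 and 8, so its groups overlapped.

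Receptors and co-receptors (9 of 10 tested) had log2 fold changes of -0.64 to 0.40 and a median of -0.0052. ACVR2B and BMPR2, type II receptors, stood at means of 196 and 66.3 CPM over the 4 libraries, and their differences on the log2 scale were 0.067 and -0.019 (edgeR adjusted p = 0.905 and 0.983). RGMA, a BMP co-receptor, was at -0.0052 on the same scale (edgeR adjusted p = 0.996), and ACVR1, another type I receptor, at 0.40 (edgeR adjusted p = 0.549). SMADs with their ubiquitin ligases and phosphatases (12 of 12 tested) had a median of -0.028. SMAD5 and SMAD4, which carry the signal, had log2 fold changes of -0.065 and 0.041, with 95% intervals of -0.37 to 0.24 and -0.26 to 0.34. CTDSP2 and PPM1A, phosphatases that act on SMADs, had -0.25 and 0.029. SMAD7, the second inhibitory SMAD, was at 36.2 and 56.3 CPM against 65.4 and 65.1 CPM (log2 fold change 0.50, edgeR adjusted p = 0.493), with WT-labelled replicate 1 the low library. The SMAD7 log2 fold change was 0.21 without that library and 0.85 without WT-labelled replicate 2 (edgeR adjusted p = 0.00173).

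Secreted antagonists and modulators (14 of 17 tested) had a median of -0.042. NBL1, a secreted BMP antagonist, was at 6.07 and 6.50 CPM in the WT-labelled libraries and 13.9 and 13.4 CPM in those labelled CPT2 KO. The replicates were close, at 6.29 ± 0.307 and 13.7 ± 0.333 CPM (SD, n = 2 each), and the groups did not overlap (log2 fold change 1.12 with an SE of 0.23, edgeR adjusted p = 0.0867, DESeq2 adjusted p = 0.0154). With each library left out in turn the NBL1 log2 fold change stayed between 1.07 and 1.17, with edgeR adjusted p from 0.00970 to 0.420. Its exons overlap MINOS1 (MICOS10 in the table) and the readthrough MINOS1-NBL1, so the assignment of its reads is uncertain. FST, follistatin, which binds activin and BMPs, was at 14.3 and 15.8 CPM against 30.7 and 21.6 CPM (log2 fold change 0.81, edgeR adjusted p = 0.221). NOG, noggin, had 67 and 8 counts against 20 and 2, so replicate 1 was the higher one under each label and the groups overlapped (log2 fold change -1.70, edgeR adjusted p = 0.724). With each library left out the NOG log2 fold change ranged from -3.96 without CPT2 KO-labelled replicate 1 to 0.61 without WT-labelled replicate 1, and it was called without WT-labelled replicate 2 (-2.60, edgeR adjusted p = 0.00245). FSTL1, TWSG1, CRIM1 and CHRDL1, the other antagonists and modulators with the highest CPM, had log2 fold changes of -0.13, -0.0054, -0.079 and -0.092.

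Of 14 listed BMP target genes, 6 of which are among the 10, 11 were tested, with a median of 0.27. HEY1, a transcriptional repressor shared by BMP and Notch signals, had 37 and 62 counts in the WT-labelled libraries and 125 and 129 in those labelled CPT2 KO. The HEY1 groups did not overlap (2.51 ± 0.710 against 6.98 ± 1.12 CPM, SD, n = 2 each; log2 fold change 1.46 with an SE of 0.33, edgeR adjusted p = 0.126, DESeq2 adjusted p = 0.0400). MSX1, MSX2 and DLX5, homeobox genes that BMP switches on in the ectoderm and mesoderm, were below the count filter, with 0 to 17 counts a library.

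**Figure D4:**
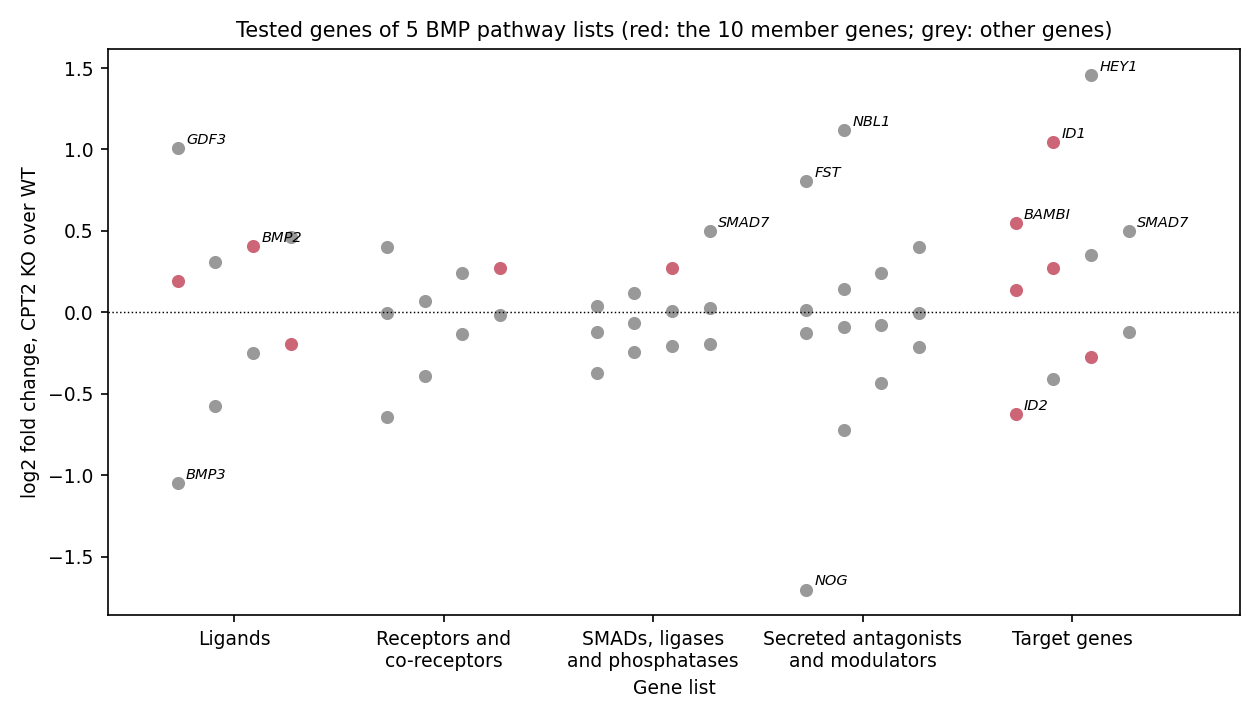
Log2 fold change, CPT2 KO-labelled libraries over those labelled WT (vertical axis), of the tested genes of 5 BMP pathway lists (horizontal axis; spread within a list only separates points); red points are the 10 genes and grey points the other genes of the lists, and a gene in 2 lists is drawn in both. HEY1 (1.46), NBL1 (1.12), ID1 (1.05) and GDF3 (1.01) are the highest points and NOG (-1.70) and BMP3 (-1.05) the lowest, and none of the 52 tested genes was called in edgeR.

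Markers of other cell types were read beside these genes. Over all tested genes, edgeR called 0.359% higher and 0.0569% lower, and DESeq2 called 0.848% and 0.262%. At an unadjusted p under 0.05 in edgeR the shares were 4.88% and 4.16%. The lists were chosen with earlier results of these data known, so these shares do not measure how unusual a list is. Of 10 mesendoderm markers with a row, 8 were tested, and 3, NODAL, FGF8 and WNT3, were called higher in edgeR and 0 lower (7 higher and 0 lower at an unadjusted p under 0.05). DESeq2 called all 8 tested mesendoderm markers higher. Under the count filter, SOX17 had 0 counts in both WT-labelled libraries and 46 and 7 in those labelled CPT2 KO. MESP1, also under it, went the other way, with 8 and 4 against 2 and 1 counts. The summed level of the mesendoderm list was 11.9 and 14.1 CPM in the WT-labelled libraries and 329 and 102 CPM in CPT2 KO-labelled replicates 1 and 2. CER1 alone was at 124 and 11.1 CPM of this sum in CPT2 KO-labelled replicates 1 and 2. Within the CPT2 KO-labelled pair, ID1 and BAMBI were higher in replicate 2, where this sum was the lower one, and ID2 was higher in replicate 1. In the WT-labelled pair ID1 was again higher in replicate 2, and ID2 and BAMBI were higher in replicate 1. Of 10 amnion and trophoblast markers 4 were tested and 0 called in edgeR or DESeq2, with 2 log2 fold changes positive and 2 negative. At an unadjusted p under 0.05 in edgeR 1 was higher, GATA2, and 0 lower. GATA2 had 19 and 13 counts in the WT-labelled libraries and 39 and 49 in those labelled CPT2 KO. The summed level of the list was 18.8 and 20.2 against 20.1 and 22.1 CPM. HAND1, CGA and CGB5 had 0 counts in every library. Also under the count filter, ISL1 had 0 and 0 against 8 and 4 counts, VTCN1 4 and 4 against 7 and 6, and CDX2 0 and 1 against 2 and 0. Of 8 neuroectoderm markers 7 were tested, and SOX1 and SIX6 were called lower in edgeR and 0 higher (3 lower and 1 higher at an unadjusted p under 0.05, and 2 lower and 0 higher with DESeq2), with summed levels of 439 and 440 against 518 and 461 CPM. Of 8 fibroblast markers 5 were tested and 0 called (edgeR, with 0 at an unadjusted p under 0.05 and 0 with DESeq2), with sums of 482 and 508 against 453 and 440 CPM. The part of these differences in mesendoderm and neuroectoderm markers in the levels of ID1, ID2 and BAMBI was not tested. In bulk RNA fewer cells of a type and less RNA per cell cannot be told apart.

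The genes whose pattern over the 4 libraries was most like that of ID1 were NETO2, GDF3 and TTC39C, by the Euclidean distance between log2 CPM deviations from each gene's mean among 11768 genes with at least 5 CPM. The distances were 0.111, 0.143 and 0.155. NETO2 was at 34.7 and 50.2 CPM in the WT-labelled libraries and 79.5 and 107 CPM in those labelled CPT2 KO, and TTC39C at 20.8 and 28.2 against 45.1 and 61.4 CPM. Those most like ID2 were BLOC1S3, NLRX1 and PRR36, at distances of 0.0326, 0.0668 and 0.0671. BLOC1S3 was at 8.56 and 6.99 against 5.44 and 4.34 CPM, and PRR36 at 38.9 and 31.8 against 25.9 and 21.6 CPM. With 4 libraries many genes share such an order, and the likeness is a description only.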

How the data were processed

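The 4 libraries were read from 1 deposited table of raw read counts per gene symbol, with gene lengths, per the file headers. Per the submitters' processing notes, the authors used the spliced aligner HISAT2 2.1.0 and the read counter featureCounts 1.6.4 on hg38 (GRCh38). Annotation release, strand setting and handling of multiply aligned reads: not given in the sources used here.

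Genes were filtered with filterByExpr of edgeR by group, leaving 17564 of 59050, and counts were scaled by TMM. The groups were compared in edgeR 4.0.16 (R 4.3.3) by its quasi-likelihood F-test (robust, group as the only term, Benjamini-Hochberg adjustment over all tested genes, threshold 0.05). The SE is the size of the log2 fold change divided by the square root of F, and intervals are at 95%. DESeq2 1.42.0, limma-voom (limma 3.58.1), 3 other scalings, 2 other filters, the legacy estimate, a replicate block and each library left out were the 13 alternatives. Left-out fits kept the same tested genes, and the lone library of a group is then assumed to vary like the pair. Levels between genes are CPM per kilobase of the deposited length. Log2 CPM for the likeness used a pseudocount of 0.5 CPM.

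The members and lists were chosen with earlier results of these data known. Named are the 10 genes, CPT2, and of each pathway list the called genes, those with a log2 fold change of at least 1 in size, no overlap and at least 1 CPM, and up to 4 others with the highest CPM. The 3 genes most like ID1 and ID2 were named by the smallest distance. Marker lists are given by counts and sums with the called genes. ACVR1, BMP3, CTDSP1, FST, NOG, SMAD7, the genes at 0 counts and those under the count filter are outside this rule, chosen after seeing their values. So are CER1, GATA2 and the uncalled neuroectoderm markers. Positions come from GENCODE 29 on GRCh38 and promoter windows from RefSeq on GRCh38.p14, matched by symbol. The counts did not use the same gene models throughout. The deposited length of ID4, 3873 bases, is longer than its GENCODE 29 span, 19837386 to 19840684, and the table has MICOS10 for MINOS1. The exon overlaps stated, or their absence, need not hold for the gene models that were counted.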

Additional observations from a re-analysis of the deposited data

How the results depend on the processing

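Of 130 estimates for the 10 genes under the alternatives, 122 kept their direction and their side of the threshold, 6 became called (4 for ID1, 2 for ID2) and 2 changed sign. The sign changes were ID4, -0.15 without WT-labelled replicate 1 (range -0.15 to 0.52 with each library left out), and BMP4, -0.20 without WT-labelled replicate 2 (range -0.20 to 0.72), both uncalled, and the cause was not tested. Other scalings moved the median of all genes by at most 0.021 in size on the log2 scale and changed no call among the 10. The number of called members, 0 in the edgeR fit, was 1 with DESeq2 (ID1), 2 with the replicate block (ID1 and ID2) and 0 to 2 with each library left out. Called pathway genes, 0 in that fit, numbered 1 with no low count filter (NBL1), 4 with DESeq2, 5 with the replicate block and 0 to 10 with each library left out. Over all genes 73 were called, against 124 with no filter, 195 with DESeq2, 373 with the replicate block and 33 to 1205 with each library left out (149 and 1205 without WT-labelled replicate 1 or 2, 33 and 83 without CPT2 KO-labelled replicate 1 or 2). The CPT2 call was lost without CPT2 KO-labelled replicate 1 or 2 (log2 fold changes 1.69 and 1.87, against 1.78 with all 4 libraries, edgeR adjusted p = 0.168 and 0.0511). Titles give replicates 1 and 2 in each group and nothing says that a number marks a shared batch. Deviations of same-numbered libraries from their group means correlated at 0.25 across 17564 genes, which with 2 pairs does not settle a pairing. Intervals cover the spread of these libraries. At 66 to 146 counts a library the intervals of BMP2, BMP4 and ID4 were wide, so differences that lie within them may have been missed. The smallest difference that could have been called was not computed.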

Other observations

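ID proteins act by binding E proteins, the basic helix-loop-helix factors TCF3, TCF4 and TCF12. TCF4 was at 154 and 157 CPM in the WT-labelled libraries and at 106 and 96.8 CPM in those labelled CPT2 KO. Its groups did not overlap, and the replicates differed by 0.034 under the WT label and by 0.14 under the CPT2 KO label on the log2 scale (log2 fold change -0.61, 95% interval -0.91 to -0.32, edgeR adjusted p = 0.112, DESeq2 adjusted p = 0.0185). TCF3 was at 242 and 254 against 233 and 265 CPM and its groups overlapped (log2 fold change 0.0060, edgeR adjusted p = 0.993). TCF12 was at 146 and 127 against 126 and 115 CPM (log2 fold change -0.18, edgeR adjusted p = 0.710). Of 8 listed E proteins and other basic helix-loop-helix genes 6 were tested and 0 called in edgeR. At an unadjusted p under 0.05 in edgeR, 1 was higher (HEY1) and 1 lower (TCF4), where 4.88% and 4.16% of all tested genes were. DESeq2 called the same 2 genes, where it called 0.848% of tested genes higher and 0.262% lower. HEY1 is also among the listed BMP target genes. HES1 and HEY2, Notch effectors, had log2 fold changes of -0.015 and 0.29. TCF4 exons overlap RPL21P126 and TCF4-AS2 on the opposite strand, so some of its reads are uncertain.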
